A study of Mus musculus with 5 samples.

Results

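The genes described here encode the subunits, activators, inhibitor and assembly chaperones of the mouse proteasome. They were taken as every gene of the deposited normalized table whose symbol is Psma, Psmb, Psmc, Psmd, Psme, Psmf or Psmg followed by a number, which gave 48 of 27526 genes. Each was measured by RNA sequencing in 5 libraries of mouse leukaemia stem cells carrying AML1-ETO9a, a truncated fusion of the transcription factor RUNX1 with its partner RUNX1T1. Per the labels, the cells were positive for the receptor Kit. One group was labelled as carrying a conditional deletion of Plcg1 (Plcg1 -/-; 3 libraries, numbered 2, 4 and 6), and the other was labelled as wild-type for Plcg1 (Plcg1 +/+; 2 libraries, numbered 1 and 3). Plcg1 encodes phospholipase C gamma, a signalling enzyme below receptor kinases. Both groups carried AML1-ETO9a. The labels do not give the driver of the deletion, the age of the mice, or whether each library came from its own mouse, so p-values measure the spread between these libraries only. Libraries are called below by label and number, as in deleted 6, and values always run deleted 2, 4 and 6, then wild-type 1 and 3.

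The labels were checked first. Plcg1 itself had 53.0, 26.9 and 37.1 CPM (counts over library size, scaled between libraries by trimmed means) in the libraries labelled deleted and 22.1 and 34.0 CPM in those labelled wild-type. The groups overlapped, and reads in parts of the gene outside a deleted stretch would still be counted, so this total does not test the label. Kit had 672, 304 and 3.08 CPM in the libraries labelled deleted and 26.8 and 32.1 CPM in those labelled wild-type, so its defining marker was close to absent in deleted 6. That library stood apart from the other 4 in other ways too. Its 13 proliferation genes summed to 205 CPM, against 2550 to 4377 CPM in each of the others. Its 10 macrophage marker genes summed to 72306 CPM, against 8649 to 18389 CPM. Gene counts per library were 53384359, 52560713 and 57133771 in the group labelled deleted, and 37306507 and 51682298 in the group labelled wild-type. The 48 proteasome genes took 0.575% to 0.923% of these counts in the libraries labelled deleted and 0.916% to 1.05% in those labelled wild-type. In bulk RNA, a smaller number of cells of one type and less RNA per cell cannot be told apart.

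The proteasome is the main protease of the cytosol and nucleus. Its barrel-shaped 20S core is a stack of rings of alpha and beta subunits, and 3 of the beta subunits cut the substrate. The 19S cap recognises ubiquitin chains, and its ATPases unfold the protein and feed it into the core. In blood cells, and in other cells exposed to interferon gamma, the cutting subunits Psmb6, Psmb7 and Psmb5 are replaced by Psmb9, Psmb10 and Psmb8. The resulting immunoproteasome makes many of the peptides that are shown on class I molecules of the major histocompatibility complex. The transcription factor Nrf1, encoded by Nfe2l1, raises the genes of the whole particle when proteasome activity is short.

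Levels of the immunoproteasome subunits Psmb8 and Psmb9 in the libraries labelled deleted were 0.542 and 0.525 times those in the libraries labelled wild-type, the testis form Psma8 stood 12.6 times as high at a low level, and 39 of the other 44 genes tested lay within 0.5 of 0 on the log2 scale. None of these differences passed the edgeR test with all 5 libraries, while those of Psmb8, Psmb9 and Psma8 passed DESeq2 and limma-voom. Of the 48 genes, 47 passed the filter on low counts; Psmb11 did not. With edgeR's quasi-likelihood test over all 16120 genes tested, no proteasome gene had an adjusted p under 0.05, and neither did any other gene (0% of all genes higher and 0% lower), the smallest adjusted p being 0.103. At an unadjusted p under 0.05 by edgeR, 1 of 47 was higher (Psma8) and 2 were lower (Psmb8 and Psmb9), that is 2.13% and 4.26%, beside 9.44% and 5.42% of all genes. Without deleted 6, edgeR called the same 3 genes at an adjusted p under 0.05, Psma8 as higher and Psmb8 and Psmb9 as lower, where 7.89% of all genes were called higher and 5.07% lower. DESeq2 on all 5 libraries also called Psma8 as higher and Psmb8 and Psmb9 as lower, beside 5.75% and 3.05% of all genes. So did limma-voom with library quality weights, beside 7.63% and 5.87% of all genes. Within the one sequencing lane that holds both groups (deleted 2 and 4 with wild-type 3), edgeR called none of the 47, beside 1.26% of all genes as higher and 0.779% as lower. That fit has 1 wild-type library and 1 residual degree of freedom, so the lone library is assumed to vary like the deleted pair.

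The median log2 fold change of the 47 genes, libraries labelled deleted over those labelled wild-type, was -0.17, and over all genes 0.01. It was positive for 8 of the 47 and negative for 39. Deleted 6 held the lowest level of 36 of the 47 genes (76.6%, beside 38.2% of all genes), and without it the median was -0.08, with 16 positive and 31 negative. Over all genes the median without deleted 6 was -0.005. Within the shared lane, which leaves out both deleted 6 and wild-type 1, the median of the 47 was 0.02, with 28 positive and 19 negative. Over all genes it was also 0.02 there, with 8720 positive and 8086 negative. Wild-type 1 held the highest level of 29 of the 47 (61.7%, beside 18.4% of all genes). Per the file names, deleted 6 was the only library in lane 5 and wild-type 1 the only one in lane 3. For these libraries, library and lane cannot be told apart. Every library labelled deleted lay above every library labelled wild-type for 3 of the 47 genes (6.38%, beside 22.4% of all genes), namely Psma8, Psmb6 and Psmd8. All lay below for 16 (34.0%, beside 23.7% of all genes). Without deleted 6 these counts were 4 (8.51%, beside 28.8% of all genes) and 17 (36.2%, beside 29.4%).

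**Figure D1:**
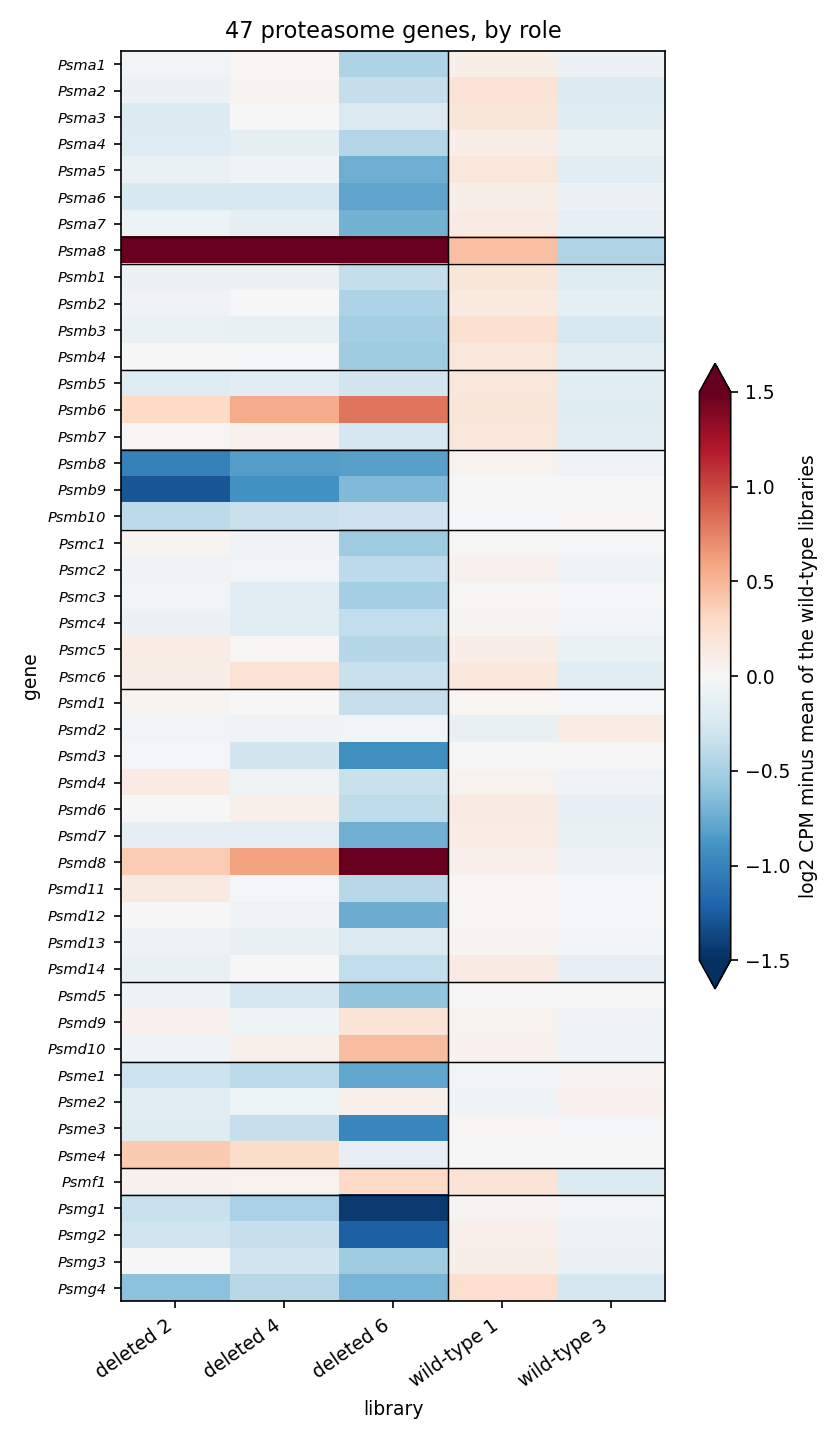
Level of the 47 proteasome genes tested, in each library, as log2 CPM minus the mean of the libraries labelled wild-type (colour; blue is below, red above; the scale ends at 1.5 either way). Rows are grouped by role from the alpha ring to the core chaperones and columns are libraries, those labelled deleted on the left. Deleted 6 is the bluest column for most rows of the alpha ring, the 19S ATPases and the chaperones, while Psmb8 and Psmb9 are blue in all 3 libraries labelled deleted.

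The immunoproteasome subunits Psmb8 and Psmb9 lie side by side with the peptide transporter genes Tap1 and Tap2 in the class II region of the major histocompatibility complex. In the mm10 build (GENCODE annotation), Psmb9 is at chr17:34181987-34187764 on the minus strand, Tap1 at chr17:34187553-34197225 on the plus strand, Psmb8 at chr17:34197721-34201454 on the plus strand and Tap2 at chr17:34203527-34216321 on the plus strand, so the 4 genes span 34.3 kb. The 5' ends of Psmb9 and Tap1 overlap by 212 bases on opposite strands. The kit does not mark strand, so reads there cannot be told apart. Psmb8 also overlaps an unnamed gene model, Gm20496, on the opposite strand. The RefSeq promoter windows (GRCm38.p6, 250 bases before to 50 after a transcript start) of Psmb8 and Psmb9 are shown because these genes had the lowest log2 fold changes of the family, and those of Psmb5 and Psmb6 because these are the subunits they replace. Capitals mark a match to a searched motif on either strand, and the positions are chr17:34197945-34198244 (plus strand), chr17:34187281-34187580 (minus), chr14:54617946-54618245 (minus) and chr11:70525107-70525406 (plus), in that order.
Psmb8: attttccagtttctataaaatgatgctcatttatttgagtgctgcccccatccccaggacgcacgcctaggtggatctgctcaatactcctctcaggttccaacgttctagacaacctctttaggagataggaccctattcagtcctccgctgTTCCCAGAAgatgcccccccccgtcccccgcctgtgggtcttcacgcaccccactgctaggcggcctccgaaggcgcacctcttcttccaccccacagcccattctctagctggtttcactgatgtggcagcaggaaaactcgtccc
Psmb9: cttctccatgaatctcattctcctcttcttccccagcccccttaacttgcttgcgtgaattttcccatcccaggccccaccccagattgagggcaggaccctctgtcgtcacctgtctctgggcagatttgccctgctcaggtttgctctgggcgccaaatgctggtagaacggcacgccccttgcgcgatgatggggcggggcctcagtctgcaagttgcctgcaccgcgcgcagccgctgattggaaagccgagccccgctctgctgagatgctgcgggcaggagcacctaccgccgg
Psmb5: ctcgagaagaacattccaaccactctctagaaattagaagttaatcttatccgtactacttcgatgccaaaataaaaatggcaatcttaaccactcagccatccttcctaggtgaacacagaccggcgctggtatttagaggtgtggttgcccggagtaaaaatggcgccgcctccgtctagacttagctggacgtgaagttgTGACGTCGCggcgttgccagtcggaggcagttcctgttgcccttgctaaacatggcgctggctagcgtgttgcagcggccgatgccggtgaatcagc
Psmb6: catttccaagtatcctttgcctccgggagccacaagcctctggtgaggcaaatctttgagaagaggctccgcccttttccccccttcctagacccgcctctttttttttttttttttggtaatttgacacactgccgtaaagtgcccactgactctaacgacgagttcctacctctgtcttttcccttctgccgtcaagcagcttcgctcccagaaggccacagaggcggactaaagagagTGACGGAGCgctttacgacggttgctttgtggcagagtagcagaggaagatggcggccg

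The Psmb8 window holds the letters of a gamma-activated site (TTCNNNGAA), a sequence of promoters that answer to interferon gamma, starting 97 bases before the transcript start. The Psmb5 and Psmb6 windows hold the core of an antioxidant response element (TGACNNNGC), to which Nrf1 and its relatives bind, starting 47 and 9 bases before the start. The Psmb9 window holds none of the 3 motifs searched, the third being the interferon-stimulated response element (GAAANNGAA). The Psmb8 and Psmb9 windows, set by RefSeq starts, lie wholly inside the GENCODE bounds of these genes. Sequence before the GENCODE 5' ends of Psmb8 and Psmb9 is therefore not in their windows. The Psmb9 and Tap1 windows face in opposite directions and share 275 of their 300 bases. Over the family, 40 of the 48 genes matched 43 windows. The gamma-activated site was in 3 of the 43 (6.98%, and 8.30% of all 32851 windows), the interferon-stimulated element in 7 (16.3%, and 8.56%) and the antioxidant core in 6 (14.0%, and 12.4%). A match describes the letters and is not evidence of binding.

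Psmb8, which carries the chymotrypsin-like activity of the immunoproteasome, had 96.8, 109.7 and 111 CPM in the libraries labelled deleted, against 203 and 188 CPM in those labelled wild-type. The groups did not overlap, and the 3 libraries labelled deleted, deleted 6 among them, lay within a narrow range. Group means were 106 ± 7.90 CPM (SD, n = 3) in the libraries labelled deleted and 195 ± 10.6 CPM (SD, n = 2) in those labelled wild-type. The difference was -0.88 ± 0.17 on the log2 scale (SE; edgeR, adjusted p = 0.164). Without deleted 6, Psmb8 fell by 0.91 ± 0.14 on the log2 scale (edgeR, adjusted p = 0.0092). The adjusted p was 8.6e-05 by DESeq2, 0.0094 by limma-voom and 0.092 by edgeR within the shared lane.

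Psmb9, which takes the place of the caspase-like subunit, had 32.9, 42.8 and 50.7 CPM in the libraries labelled deleted, against 80.6 and 80.2 CPM in those labelled wild-type. The wild-type values were almost equal, and each library labelled deleted was lower. The difference was -0.93 ± 0.23 on the log2 scale (SE; edgeR, adjusted p = 0.220). Without deleted 6, Psmb9 fell by 1.07 ± 0.17 on the log2 scale (edgeR, adjusted p = 0.0103). The adjusted p was 0.0270 by DESeq2, 0.013 by limma-voom and 0.0966 by edgeR within the shared lane.

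Psmb10, on chromosome 8 (chr8:105935735-105938444), takes the place of the trypsin-like subunit. It had 47.6, 49.5 and 50.3 CPM in the libraries labelled deleted and 61.6 and 63.0 CPM in those labelled wild-type. The groups did not overlap, but the gap was smaller than for the other pair, with a log2 fold change of -0.34 ± 0.15 (SE; edgeR, adjusted p = 0.369; 0.137 without deleted 6). No alternative test called it, the lowest adjusted p being 0.0721 by limma-voom. Summed per kilobase of exon, the 3 immunoproteasome subunits reached 65.6, 73.2 and 76.3 CPM per kb in the libraries labelled deleted, against 118 and 114 CPM per kb in those labelled wild-type, a log2 ratio of -0.70. The ratio of Psmb8 to Psmb9 per kilobase was 3.18, 2.77 and 2.37 in the libraries labelled deleted and 2.72 and 2.53 in those labelled wild-type, so the groups overlapped in that measure.

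**Figure D2:**
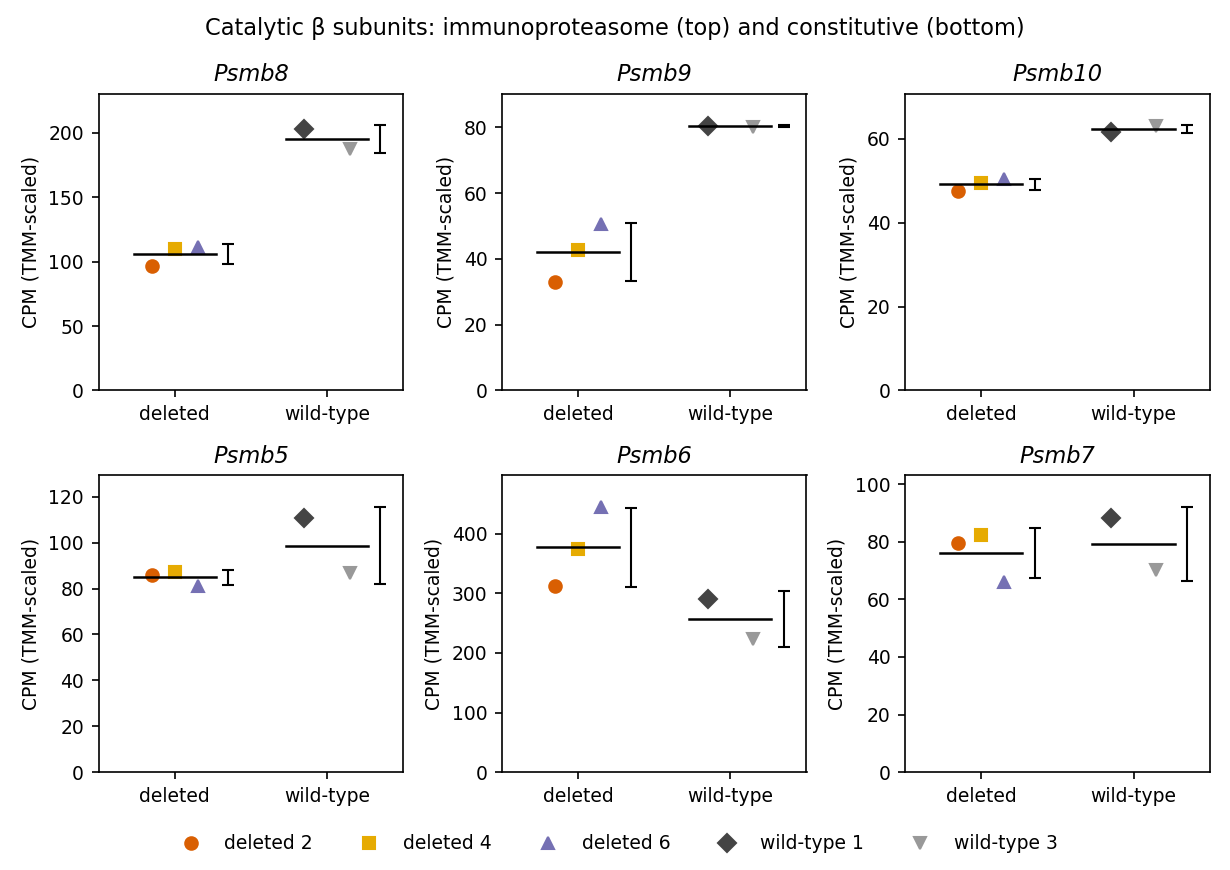
CPM of the immunoproteasome subunits (top row) and of the constitutive subunits they replace (bottom row). Points are libraries, lines group means and bars 1 SD (n = 3 labelled deleted, left; n = 2 labelled wild-type, right). Psmb8, Psmb9 and Psmb10 lie lower in all 3 libraries labelled deleted, Psmb6 lies higher, and Psmb5 and Psmb7 overlap between groups.

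Of the constitutive partners, Psmb5 and Psmb7 overlapped between the groups and Psmb6 lay higher in the libraries labelled deleted. Psmb5, the chymotrypsin-like subunit, had 86.0, 87.4 and 81.1 CPM in the libraries labelled deleted and 111 and 86.8 CPM in those labelled wild-type, with a log2 fold change of -0.22 ± 0.18 (SE; edgeR, adjusted p = 0.567). Psmb7, the trypsin-like subunit, had 79.6, 82.4 and 66.2 CPM in the libraries labelled deleted and 88.3 and 70.1 CPM in those labelled wild-type (-0.06 ± 0.20; edgeR, adjusted p = 0.887). Within the shared lane the sign of the log2 fold change was positive (0.01 and 0.22). Psmb6, the caspase-like subunit, ran the other way, with 312, 375 and 445 CPM in the libraries labelled deleted and 289.8 and 224 CPM in those labelled wild-type. All 3 libraries labelled deleted were above both labelled wild-type, by 0.55 ± 0.25 on the log2 scale (SE; edgeR, adjusted p = 0.374; 0.174 without deleted 6). Psmb5, Psmb6 and Psmb7 each have a named pseudogene, and reads that aligned to several places were left out by the authors' counting, so their levels are uncertain.

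Each immunoproteasome subunit was then taken as a share of itself plus the subunit it replaces, per kilobase of exon. Such a share does not depend on the scaling between libraries. Psmb9 made up 5.12%, 5.52% and 5.51% of its pair with Psmb6 in the libraries labelled deleted, against 12.4% and 15.5% in those labelled wild-type. Deleted 6 lay between deleted 2 and deleted 4, and all 3 were lower than both libraries labelled wild-type. The means were 5.39% ± 0.230 (SD, n = 3) in the libraries labelled deleted and 14.0% ± 2.14 (SD, n = 2) in those labelled wild-type, a difference of -8.58 percentage points (exact two-sided permutation p = 0.2, and 0.3 adjusted over the 3 pairs). This test doubles the p of the smaller tail, and 0.2 is the smallest it can give for 3 against 2 libraries. Psmb8 made up 23.0%, 25.0% and 26.7% of its pair with Psmb5 in the libraries labelled deleted, against 32.8% and 36.5% in those labelled wild-type (a difference of -9.72 percentage points, exact two-sided permutation p = 0.2, adjusted over the 3 pairs 0.3). Psmb10 made up 54.6%, 54.7% and 60.4% of its pair with Psmb7 in the libraries labelled deleted, against 58.3% and 64.3% in those labelled wild-type. Here the groups overlapped through deleted 6 (a difference of -4.77 percentage points, exact two-sided permutation p = 0.4, adjusted 0.4). The difference was -6.70 points without deleted 6, -7.74 without wild-type 1 and -1.79 without wild-type 3. These 3 pairs were the only ones compared, and no permutation p of this design can reach 0.05. Summed per kilobase, the immunoproteasome subunits stood at 0.230, 0.228 and 0.220 times the constitutive ones in the libraries labelled deleted, against 0.389 and 0.483 times in those labelled wild-type. Set against the alpha ring instead, the immunoproteasome subunits stood at 0.0958, 0.106 and 0.156 times in the libraries labelled deleted and at 0.145 and 0.164 times in those labelled wild-type, so the groups overlapped through deleted 6. Psmb5 and Psmb7 together stood at 0.174, 0.175 and 0.224 times the alpha ring in the libraries labelled deleted and at 0.182 and 0.168 times in those labelled wild-type, also with overlap, which leaves Psmb6 as the constitutive subunit that separated the groups.

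**Figure D3:**
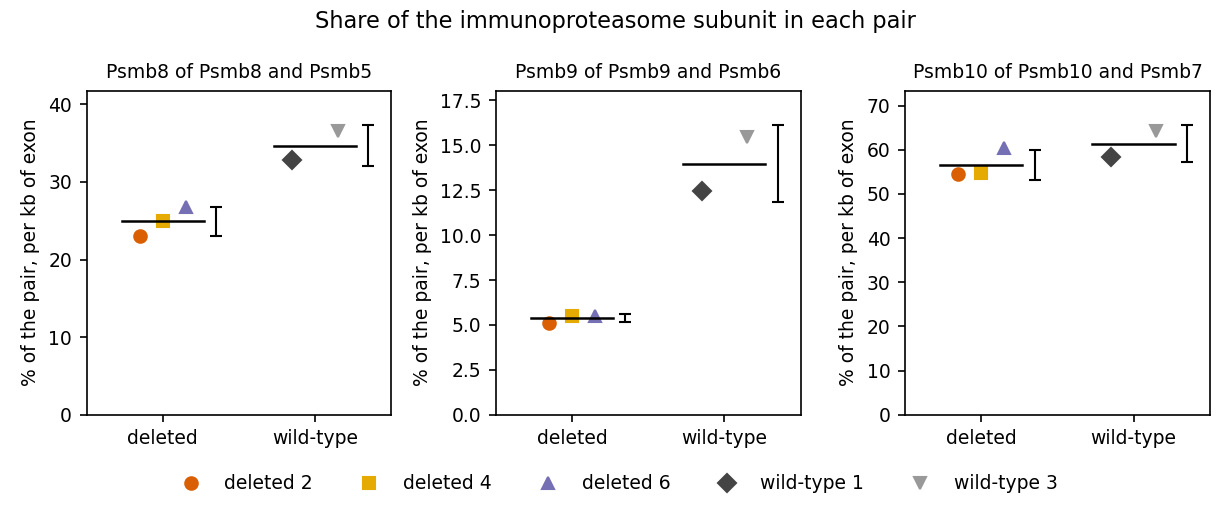
Share of each immunoproteasome subunit in the sum of itself and the subunit it replaces, in percent per kilobase of union exon. Points are libraries, lines group means and bars 1 SD (n = 3 labelled deleted, left; n = 2 labelled wild-type, right). The shares of Psmb8 and Psmb9 in the libraries labelled deleted lie below both labelled wild-type, and those of Psmb10 overlap.

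The marker genes of other cell types also differed between the libraries, and their part in the immunoproteasome result was not tested. Calls in these lists are read beside the 7.89% of all genes called higher and 5.07% called lower without deleted 6. Of 8 mast cell markers, 8 were called higher without deleted 6 (edgeR), and their summed level was 10358, 4698 and 32.3 CPM in the libraries labelled deleted, against 40.5 and 82.2 CPM in those labelled wild-type. The lower sum in deleted 6 than in either wild-type library came from Hdc and Ms4a2. Hdc had 1.90 CPM in deleted 6, against 21.4 and 52.4 CPM in wild-type 1 and 3, and Ms4a2 had 0.452 CPM, against 5.45 and 7.91 CPM. Cpa3 was higher in deleted 6, at 23.1 CPM against 9.64 and 15.7 CPM, as were Cma1 and Tpsb2. Tpsab1, Mcpt4 and Fcer1a in deleted 6 lay between the wild-type values. Of 8 dendritic cell markers, 5 of the 7 tested were called higher without deleted 6, and the sum was 754, 931 and 4351 CPM in the libraries labelled deleted and 134 and 153 CPM in those labelled wild-type. Most of that sum was Cd74, H2-Ab1 and Itgax, while Flt3, Xcr1 and Clec9a stayed at or under 3.12 CPM in every library. Of 10 macrophage markers, 2 were called higher without deleted 6, and the sum was 8649, 18389 and 72306 CPM in the libraries labelled deleted and 10828 and 10183 CPM in those labelled wild-type. Of 10 neutrophil and promyelocyte markers, 5 were called lower without deleted 6 and none higher, and the sum was 14134, 15844 and 113 CPM in the libraries labelled deleted and 18277 and 20107 CPM in those labelled wild-type. Of the 8 T and NK cell markers 4 had no count in any library (Cd3e, Cd3g, Trbc2 and Ncr1) and only Nkg7 was tested, at 33.0, 27.2 and 0.407 CPM in the libraries labelled deleted and 74.4 and 105 CPM in those labelled wild-type. The 5 B cell markers summed to 3.96, 6.80 and 0 CPM in the libraries labelled deleted and 15.9 and 21.2 CPM in those labelled wild-type. The 7 erythroid markers summed to 13.1, 4.61 and 1.13 CPM in the libraries labelled deleted and 2.29 and 2.58 CPM in those labelled wild-type. Of the 8 markers of Kit-positive progenitors, 3 were called higher (Kit, Cd34 and Gata2) and 2 lower (Myb and Meis1) without deleted 6, and the sum was 1337, 710 and 10.9 CPM in the libraries labelled deleted and 478 and 513 CPM in those labelled wild-type.

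Differences in the structural rings of the core were small. The 7 alpha subunits, which form the gate of the barrel, had negative log2 fold changes in all 7 cases, from -0.40 to -0.14, and without deleted 6 in 6 of 7. Within the shared lane the sign was positive for 5 of the 7 (Psma1, Psma2, Psma3, Psma5 and Psma7), with a range of -0.14 to 0.20. Psma6 had the lowest log2 fold change of the 7, with 318, 314 and 215 CPM in the libraries labelled deleted and 394 and 349.9 CPM in those labelled wild-type (-0.40 ± 0.25; edgeR, adjusted p = 0.479; -0.22 without deleted 6). Its groups did not overlap, and deleted 6 was the lowest. Psma4 had 109.9, 113 and 92.7 CPM in the libraries labelled deleted and 134 and 118 CPM in those labelled wild-type, again without overlap (edgeR, adjusted p = 0.511). Psma7 had 379.5, 361 and 246 CPM in the libraries labelled deleted and 436 and 369 CPM in those labelled wild-type, with overlap (edgeR, adjusted p = 0.596). Summed per kilobase, the alpha ring reached 684, 692 and 489.6 CPM per kb in the libraries labelled deleted and 816 and 698 CPM per kb in those labelled wild-type.

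The 4 beta subunits without a catalytic site had log2 fold changes between -0.25 and -0.17, and all 4 overlapped between the groups. Psmb1 had 230.5, 231 and 192 CPM in the libraries labelled deleted and 279 and 216 CPM in those labelled wild-type (edgeR, adjusted p = 0.669). Psmb3 had 62.0, 61.3 and 46.5 CPM in the libraries labelled deleted and 78.4 and 56.3 CPM in those labelled wild-type (edgeR, adjusted p = 0.611). Psmb4 had 158, 155 and 110.0 CPM in the libraries labelled deleted and 179 and 141 CPM in those labelled wild-type (edgeR, adjusted p = 0.707). In each of these 3, deleted 6 was lowest and wild-type 1 highest. Within the shared lane their log2 fold changes were positive, at 0.11, 0.14 and 0.16. Psmb11, the catalytic subunit of the thymus proteasome, had 0, 1 and 1 counts in the libraries labelled deleted and 0 and 2 counts in those labelled wild-type, under the limit of 3 counts in every library.

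Psma8 is the alpha subunit of the testis proteasome, where it replaces Psma7. It had the highest log2 fold change of the family at a low level, with 4.57, 3.30 and 11.7 CPM (261, 175 and 517 counts) in the libraries labelled deleted, against 0.675 and 0.360 CPM (28 and 20 counts) in those labelled wild-type. The libraries labelled deleted were all above those labelled wild-type, and deleted 6 was the highest. The difference was 3.66 ± 0.79 on the log2 scale (SE; edgeR, adjusted p = 0.190). Without deleted 6, Psma8 rose by 2.95 ± 0.45 on the log2 scale (edgeR, adjusted p = 0.00943). The adjusted p was 7.08e-05 by DESeq2, 0.0164 by limma-voom and 0.0618 by edgeR within the shared lane. Per kilobase of exon, Psma8 stood at 0.0148, 0.0113 and 0.0586 times Psma7 in the libraries labelled deleted and at 0.00191 and 0.00120 times in those labelled wild-type, so it remained a small fraction of the alpha transcripts in every library.

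In the 19S cap, the lid subunit Psmd8 stood out, with 329, 384 and 857 CPM in the libraries labelled deleted, against 266 and 240.3 CPM in those labelled wild-type. The groups did not overlap, and deleted 6 was far above every other library. The log2 fold change was 1.05 ± 0.49 with all 5 libraries (SE; edgeR, adjusted p = 0.376) and 0.51 ± 0.15 without deleted 6 (edgeR, adjusted p = 0.0741), so that 1 library moved it by more than 1.5 times. The other 10 non-ATPase subunits had log2 fold changes from -0.36 to -0.05, all negative. Without deleted 6, 4 of these 10 were positive (Psmd1, Psmd4, Psmd6 and Psmd11), and within the shared lane 6 were. Psmd3, a subunit of the lid, had 289.9, 243 and 156 CPM in the libraries labelled deleted and 297 and 294 CPM in those labelled wild-type (edgeR, adjusted p = 0.568). Psmd7, the partner of the lid's deubiquitinase Psmd14, had 225, 225 and 151 CPM in the libraries labelled deleted and 268 and 231 CPM in those labelled wild-type (edgeR, adjusted p = 0.556). In both, all 3 libraries labelled deleted were lower, deleted 6 by the widest margin, and without it both log2 fold changes were -0.13.

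The 6 ATPases of the cap, which pull the substrate into the core, lay close together. Their log2 fold changes ran from -0.23 to 0.01, and without deleted 6 they ran from -0.11 to 0.16, with 3 positive and 3 negative. Psmc4 had 253, 240.5 and 208 CPM in the libraries labelled deleted and 276 and 262 CPM in those labelled wild-type (edgeR, adjusted p = 0.600). Psmc3 had 311, 284 and 223 CPM in the libraries labelled deleted and 323 and 314 CPM in those labelled wild-type (edgeR, adjusted p = 0.616). Psmc2 had 254, 256 and 201 CPM in the libraries labelled deleted and 276 and 253 CPM in those labelled wild-type (edgeR, adjusted p = 0.696), and its groups overlapped. Per kilobase, the ATPases summed to 0.938, 0.885 and 0.955 times the alpha ring in the libraries labelled deleted and 0.810 and 0.874 times in those labelled wild-type. The groups did not overlap in that ratio, with the libraries labelled deleted higher.

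**Figure D4:**
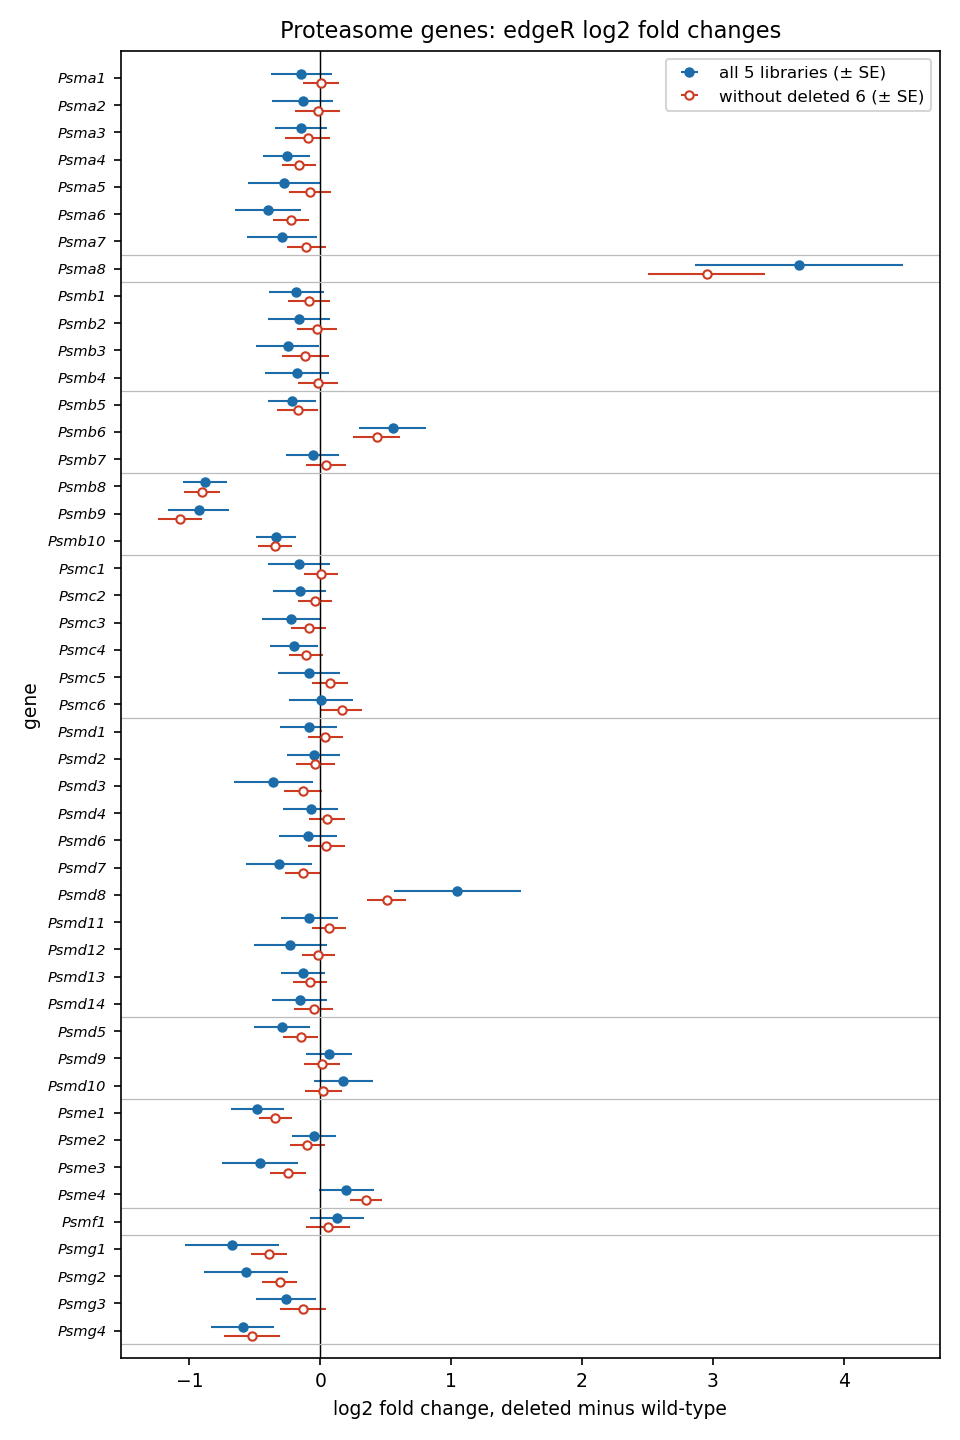
Log2 fold change of the 47 proteasome genes tested, libraries labelled deleted minus those labelled wild-type, from edgeR with all 5 libraries (filled) and without deleted 6 (open). Bars are 1 SE and lines separate the roles, from the alpha ring at the top to the core chaperones at the bottom. Psmb8 and Psmb9 keep their distance from 0 in both fits, Psma8 is highest, and Psmd8 moves towards 0 without deleted 6.

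Assembly factors were described next. The 19S cap is built with the help of Psmd5, Psmd9 and Psmd10 (gankyrin). Psmd5 had 202, 179 and 141 CPM in the libraries labelled deleted and 212 and 214 CPM in those labelled wild-type (edgeR, adjusted p = 0.527). Psmd9 had 53.7, 49.2 and 58.8 CPM in the libraries labelled deleted and 53.4 and 49.5 CPM in those labelled wild-type (edgeR, adjusted p = 0.846). Psmd10 had 46.4, 51.1 and 66.7 CPM in the libraries labelled deleted and 50.7 and 46.1 CPM in those labelled wild-type (edgeR, adjusted p = 0.690). Only Psmd5 separated the groups.

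The core is built on the chaperones Psmg1 to Psmg4, of which Psmg1 and Psmg2 form a pair, as do Psmg3 and Psmg4. All 4 had negative log2 fold changes, and 3 of the 4 separated the groups, where every library labelled deleted was lower for 23.7% of all genes. Psmg1 had 44.8, 40.3 and 20.8 CPM in the libraries labelled deleted and 57.9 and 55.0 CPM in those labelled wild-type (-0.68 ± 0.36; edgeR, adjusted p = 0.416). Psmg2 had 52.1, 50.7 and 27.6 CPM in the libraries labelled deleted and 68.0 and 60.7 CPM in those labelled wild-type (-0.57 ± 0.32; edgeR, adjusted p = 0.444). In both, deleted 6 was by far the lowest; without it the log2 fold changes were -0.39 and -0.31. Psmg4 had 16.3, 18.7 and 15.4 CPM in the libraries labelled deleted and 29.7 and 21.1 CPM in those labelled wild-type (-0.59 ± 0.24; edgeR, adjusted p = 0.342). Psmg4 stayed between 15.4 and 18.7 CPM in the libraries labelled deleted. The 13 proliferation genes summed to 2822, 2550 and 205 CPM in the libraries labelled deleted and 3891 and 4377 CPM in those labelled wild-type, with every library labelled deleted below both labelled wild-type for all 13. Their part in the chaperones' levels was not tested.

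Among the activators, Psme1 and Psme2 form the interferon-induced 11S ring that opens the core without ATP. Psme1 had 103, 98.2 and 75.3 CPM in the libraries labelled deleted and 126 and 132 CPM in those labelled wild-type, without overlap (-0.48 ± 0.20; edgeR, adjusted p = 0.350). Psme2 had 57.9, 61.7 and 68.0 CPM in the libraries labelled deleted and 61.9 and 67.3 CPM in those labelled wild-type, with overlap (-0.05 ± 0.17; edgeR, adjusted p = 0.892). Although the genes are neighbours on chromosome 14 (chr14:55578123-55581529 and chr14:55587441-55591113) and their products assemble together, their levels diverged in deleted 6, which had the lowest Psme1 and the highest Psme2. Per kilobase, Psme1 stood at 1.43, 1.27 and 0.885 times Psme2 in the libraries labelled deleted and at 1.62 and 1.57 times in those labelled wild-type. Psme3, the nuclear member of the same family, had 345, 308 and 198 CPM in the libraries labelled deleted and 397 and 385 CPM in those labelled wild-type (-0.46 ± 0.29; edgeR, adjusted p = 0.475; -0.25 without deleted 6). Psme4, a large single-chain activator, had 115, 106 and 80.2 CPM in the libraries labelled deleted and 86.6 and 87.8 CPM in those labelled wild-type (0.20 ± 0.21; edgeR, adjusted p = 0.643; 0.35 without deleted 6). Deleted 2 and 4 were above both wild-type libraries and deleted 6 was below them. Psmf1, an inhibitor of the core in vitro, had 64.5, 63.6 and 75.8 CPM in the libraries labelled deleted and 70.8 and 53.6 CPM in those labelled wild-type (0.13 ± 0.21; edgeR, adjusted p = 0.754).

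Genes around the immunoproteasome were examined from lists of the pathways that act on it. With all 5 libraries and the filter on low counts, edgeR called none of them, as for all genes. The calls given here are therefore those without deleted 6, where 7.89% of all genes were called higher and 5.07% lower. Among 12 genes of interferon signalling and class I gene control, 1 was called higher (Jak2) and 2 lower (Ifngr1 and Irf8). Ifngr1, the ligand-binding chain of the interferon gamma receptor, had 173, 214 and 149 CPM in the libraries labelled deleted and 475 and 473 CPM in those labelled wild-type (-1.41 ± 0.22; edgeR, adjusted p = 0.133). Without deleted 6, it fell by 1.28 on the log2 scale (edgeR, adjusted p = 0.00450). With all 5 libraries it was also called lower by DESeq2 (adjusted p = 2.95e-06), by limma-voom (adjusted p = 0.0070) and by edgeR with no filter on low counts (adjusted p = 0.0489). Irf8, a myeloid transcription factor, had 35.5, 69.9 and 114 CPM in the libraries labelled deleted and 209 and 256 CPM in those labelled wild-type (-1.67 ± 0.49; edgeR, adjusted p = 0.271). Without deleted 6, it fell by 2.13 on the log2 scale (edgeR, adjusted p = 0.00871). Jak2, a kinase bound to that receptor, had 139.9, 122 and 87.4 CPM in the libraries labelled deleted and 62.2 and 76.7 CPM in those labelled wild-type and was called higher without deleted 6 (edgeR, adjusted p = 0.0141).

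Regulators of transcription on the same list included Irf1 and Nlrc5, and edgeR called neither without deleted 6. Irf1, an interferon-induced transcription factor, had 35.4, 40.5 and 41.7 CPM in the libraries labelled deleted and 43.8 and 50.8 CPM in those labelled wild-type, without overlap (edgeR, adjusted p = 0.496). Nlrc5, the activator of class I genes, had 31.0, 37.1 and 52.4 CPM in the libraries labelled deleted and 34.3 and 48.7 CPM in those labelled wild-type (edgeR, adjusted p = 0.941). Jak2, Irf1 and Nlrc5 were named after their values were seen.

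The class I peptide supply list held the neighbours of Psmb8 and Psmb9. None of its 9 genes was called without deleted 6. Tap2 had 102, 86.4 and 89.8 CPM in the libraries labelled deleted and 127 and 175 CPM in those labelled wild-type, without overlap (-0.70 ± 0.21; edgeR, adjusted p = 0.274; 0.0670 without deleted 6; 0.0386 by limma-voom). Tap1 had 82.2, 83.2 and 123 CPM in the libraries labelled deleted and 104 and 140.3 CPM in those labelled wild-type (-0.34 ± 0.27; edgeR, adjusted p = 0.549). Deleted 6 brought the Tap1 groups to overlap, while deleted 2 and 4 were below both wild-type libraries. All 4 genes of the cluster thus had negative log2 fold changes, of -0.93 for Psmb9, -0.34 for Tap1, -0.88 for Psmb8 and -0.70 for Tap2. B2m, the light chain of class I molecules, ran over a wide range, with 1045, 2213 and 4648 CPM in the libraries labelled deleted and 1490.2 and 877 CPM in those labelled wild-type (edgeR, adjusted p = 0.470).

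**Figure D5:**
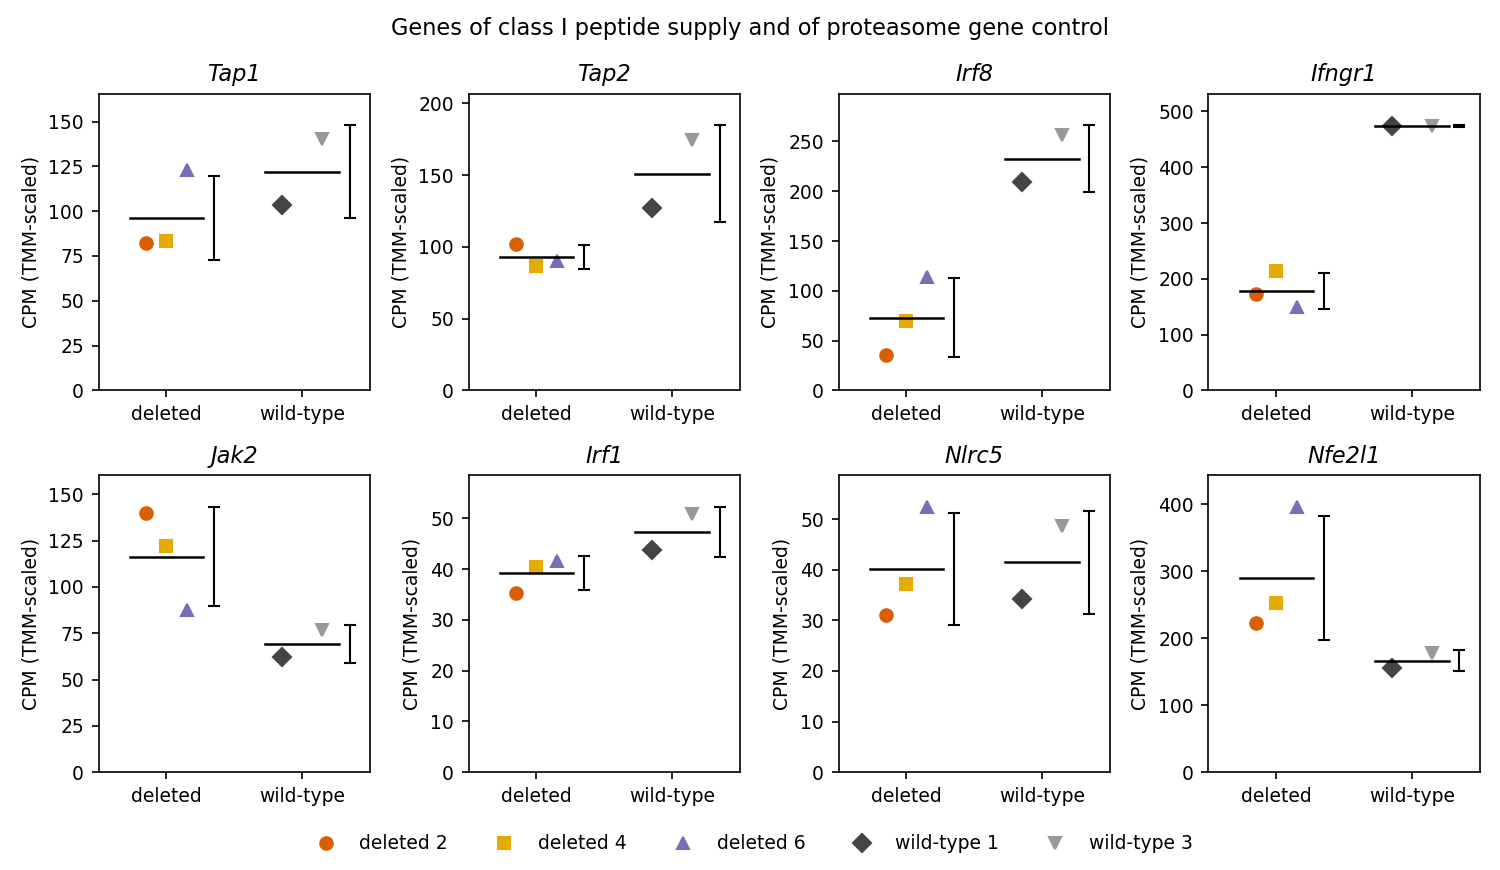
CPM of genes that supply class I peptides (Tap1, Tap2), of interferon signalling and class I gene control (Irf8, Ifngr1, Jak2, Irf1, Nlrc5) and of Nfe2l1, in each library. Points are libraries, lines group means and bars 1 SD (n = 3 labelled deleted, left; n = 2 labelled wild-type, right). Ifngr1, Irf8, Irf1 and Tap2 lie lower in all 3 libraries labelled deleted and Jak2 and Nfe2l1 lie higher, while Tap1 and Nlrc5 overlap.

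The general supply of the proteasome was looked at in 3 further lists. Of 11 measured proteasome-associated genes, 1 was called higher without deleted 6 and none lower. It was Zfand5, a zinc finger protein that binds the proteasome, with 144, 163 and 267 CPM in the libraries labelled deleted and 99.3 and 88.7 CPM in those labelled wild-type (1.02 ± 0.33; edgeR, adjusted p = 0.286). Without deleted 6, it rose by 0.72 on the log2 scale (edgeR, adjusted p = 0.0220). Uchl5, a deubiquitinase of the cap, had 158, 153 and 69.4 CPM in the libraries labelled deleted and 206 and 194 CPM in those labelled wild-type (edgeR, adjusted p = 0.456). Adrm1, the ubiquitin receptor that holds it, had 39.3, 36.8 and 28.9 CPM in the libraries labelled deleted and 36.3 and 35.4 CPM in those labelled wild-type (edgeR, adjusted p = 0.938). Pomp, the maturation factor of both core types, had 179, 199 and 261 CPM in the libraries labelled deleted and 193 and 178 CPM in those labelled wild-type (edgeR, adjusted p = 0.665).

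Of the 9 genes of the Nrf1 axis edgeR called none, with or without deleted 6. Nfe2l1 had 222, 252 and 396 CPM in the libraries labelled deleted and 155 and 178 CPM in those labelled wild-type, without overlap (0.80 ± 0.32; edgeR, adjusted p = 0.336; 0.0419 by limma-voom). Ngly1, which trims sugars from Nrf1 on its way to the nucleus, had 56.4, 50.8 and 58.8 CPM in the libraries labelled deleted and 37.5 and 42.2 CPM in those labelled wild-type (edgeR, adjusted p = 0.318). Over the 43 family members other than Psmb8, Psmb9, Psmb10, Psma8 and Psmb11, the median log2 fold change was -0.16, and -0.05 without deleted 6. Of the 12 genes of ubiquitin and its carriers edgeR called none either. Nub1, which carries ubiquitin-like proteins to the proteasome, had 82.2, 88.0 and 158 CPM in the libraries labelled deleted and 60.3 and 63.2 CPM in those labelled wild-type (edgeR, adjusted p = 0.350). In the proliferation list, 5 of 13 genes were called lower without deleted 6, beside 5.07% of all genes. Pcna had 47.2, 55.4 and 36.3 CPM in the libraries labelled deleted and 79.1 and 69.2 CPM in those labelled wild-type, and Mcm3 had 349, 292 and 48.5 CPM in the libraries labelled deleted and 446 and 529 CPM in those labelled wild-type.

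By level, all 48 genes together summed to 3345, 3355 and 2854 CPM per kb in the libraries labelled deleted and 3719 and 3309 CPM per kb in those labelled wild-type. Psma6 and Psmb2 were the highest single genes in every library but deleted 6, at 175 to 257 and 192 to 263 CPM per kb in the libraries labelled deleted, and at 284 to 319 and 239 to 293 CPM per kb in those labelled wild-type. In deleted 6, Psmd8 at 280.2 and Psmb6 at 237 CPM per kb were above both. Psmb11 and Psma8 stood lowest. By share of the family total, the immunoproteasome subunits made up 1.96%, 2.18% and 2.67% in the libraries labelled deleted, against 3.18% and 3.46% in those labelled wild-type. The constitutive catalytic subunits made up 8.54%, 9.58% and 12.2% in the libraries labelled deleted, against 8.16% and 7.15% in those labelled wild-type.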

How the data were processed

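Per the labels, RNA extracted with TRIzol was amplified by SMART-Seq v4 chemistry and tagged with Nextera XT; reads were single-end. Neither kit marks strand. The submitters' processing notes name bcl2fastq 1.8.4, STAR without a version, DESeq2 1.12.4 and mm10. Which annotation and counting settings they chose is not given in these sources. The authors deposited whole-number read counts for 46603 genes per library, and a normalized signal, which proved to be the deposited counts over a constant for each library. The normalized table gave the symbols and the 48 genes; all tests used the counts. The 5 rows that name no gene were left out: reads aligned to several places were 13.0% to 15.1% of a library, reads outside genes 5.89% to 8.09%, ambiguous reads 2.36% to 2.78% and unaligned reads 2.48% to 4.13%. No pair of libraries agreed within sampling noise, the closest being wild-type 1 and 3 at a chi-square of 57.4 per gene.

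Groups came from the labelled genotype. Genes were kept with filterByExpr, scaled by TMM and fitted by glmQLFit in edgeR 4.0.16 under R 4.3.3 (quasi-likelihood F test; intercept and genotype, 3 residual degrees of freedom), with Benjamini-Hochberg adjustment over all 16120 genes and a threshold of 0.05. Alternatives were 2 other scalings, no filter, a stricter filter, DESeq2 1.42.0, limma-voom (limma 3.58.1) with quality weights, the lane of the file names that holds both groups, and leaving out each library. The count of genes whose groups do not overlap without deleted 6, or under another scaling, was added after seeing the data. Levels per kilobase divide CPM by the union of GENCODE M21 exons. A count of 3 corresponds to 0.0525 to 0.0571 CPM in the libraries labelled deleted and 0.0580 to 0.0804 CPM in those labelled wild-type; such limits cover counting error only, since PCR copies were not told apart.

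The genes, roles and lists were chosen with earlier results of these data known. Named with values are all catalytic subunits, activators, the inhibitor and Psma8; the 3 genes with the smallest unadjusted p in each other role; the 2 with the smallest p in each pathway list, with Pomp, Adrm1, Nfe2l1 and Tap1; and the highest and lowest log2 fold changes among members whose mean log2 CPM reaches 3. Some genes that this rule names are not reported here. Overlapping genes on the opposite strand were annotated for 18 of the 48 genes, whose counts are less certain.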

Additional observations from a re-analysis of the deposited data

How the results depend on the processing

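Psmb8 and Psmb9 kept their direction under all 12 alternatives across genes. They and Psma8 passed the threshold in 3 of them, without deleted 6, by DESeq2 and by limma-voom. Members called went from 0 and 0 to 1 higher and 2 lower by DESeq2 and by limma-voom, and ran from 0 to 1 higher and 0 to 2 lower when each library was left out. All genes called were 163 higher and 115 lower with no filter, 927 and 492 by DESeq2, 1230 and 947 by limma-voom, and 211 and 131 in the shared lane; leaving out each library gave 0 to 1245 higher and 0 to 800 lower, with calls only without deleted 6. The members' median was 0.023 in the shared lane, where that over all genes was also 0.023. There the difference in share was -12.5 points for Psmb8, -10.2 for Psmb9 and -9.68 for Psmb10. For Psmb9 it was -14.0 points by counts without length, -6.02 by the longest transcript, and -10.1 to -7.06 when each library was left out. Leaving out each library gave log2 ratios of summed levels of -0.027 to 0.056 for the 19S non-ATPase subunits, 0.067 to 0.43 for the constitutive catalytic subunits and -0.059 to 0.34 for Psmf1. Signs of log2 fold changes turned by limma-voom for Psmb7 (0.051), Psmd9 (-0.032) and Adrm1 (0.050), and in the shared lane for Psmb5 (0.0093), Psmb7 (0.22), Psmc2 (0.023), Psma7 (0.015), Psmb3 (0.14), Psmb1 (0.11), Psmb4 (0.16) and Adrm1 (0.12). With each library left out, they ran from -0.11 to 0.018 for Psme2, -0.21 to 0.11 for Psmb7, -0.12 to 0.10 for Adrm1, -0.47 to 0.0061 for Psmb3, -0.35 to 0.013 for Psmb1 and -0.056 to 0.34 for Psmf1. No cause of these changes was tested. In all, 489 values of named genes under an alternative kept their sign and side of the threshold, 19 passed it and 19 changed sign. No paired analysis was possible because the groups share no replicate number. Depth limits Psmb11.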
